A study of Mus musculus with 6 samples.

Results

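The genes described here are the mouse major histocompatibility complex (MHC) genes and the genes of antigen presentation, measured by RNA sequencing in cells sorted from pancreatic islets. The rule goes by name. Every row of the expression table whose symbol begins with H2- was taken, and B2m, Cd74, Tap1, Tap2, Tapbp, Ciita, Nlrc5, Psmb8, Psmb9 and Psmb10 were added. This gave 54 of the 46959 rows of the table, 44 of them with the H2- prefix. Of the 54 genes, 39 belong to the class I side, 14 to the class II side, and 1, H2-Ke6, is an enzyme gene that lies in the H2 region and is no MHC gene. On mouse build GRCm38, 49 of the 54 lie on chromosome 17, and those with the H2- prefix run from chr17:33974659 to chr17:37483552.

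MHC class I molecules are carried by nearly all nucleated cells and show peptides from proteins made inside the cell to CD8 T cells. A class I heavy chain pairs with B2m (beta-2 microglobulin). Its peptides are cut by the proteasome, pumped into the endoplasmic reticulum by the TAP transporter and loaded with the help of tapasin. MHC class II molecules are made of an alpha and a beta chain and show peptides from material taken up by the cell to CD4 T cells. They are expressed mainly by professional antigen-presenting cells such as dendritic cells, macrophages and B cells, and they need the invariant chain Cd74 and the loading chains H2-DM. The regulators Nlrc5 and Ciita act on class I and class II promoters respectively. In islets, class I on beta cells is of interest because beta cells are the targets of CD8 T cells in type 1 diabetes.

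The study set immature beta cells beside mature beta cells and beside the remaining cells of the same islets. All animals were adult mice that carried a pair of reporter transgenes, Ins1-H2b-mCherry and Ucn3-eGFP, so red fluorescence followed the Ins1 promoter and green fluorescence the Ucn3 promoter. Cells with red fluorescence alone were collected as immature beta cells, cells with both colours as mature beta cells, and cells with neither (the double negative group) as non-beta cells. There were 3 groups of 2 libraries each. The islets of 10 to 12 animals were pooled for a library, kept overnight at 5.5 mM glucose with 10% serum and dissociated with 0.25% trypsin. The sample labels give the sex of replicate 1 as male and of replicate 2 as female, whereas the design text speaks of females. No source used here names the strain or its H2 haplotype. The groups are defined by the activity of 2 promoters, and a sort gate can hold other cells.

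Values are RPKM, reads scaled to gene length and to the size of the library. Differences are on the log2(RPKM + 1) scale and understate the change of genes near 0. They were tested with limma over 13367 genes that reached 1 RPKM in at least 2 libraries, at an adjusted p of 0.05. The steps between low values gave back 2393839 and 3448922 reads for the immature libraries and 22063840 to 26824339 for the other 4, so a low level is less precise in the immature group. Pearson's r between the replicates of a group was 0.967 to 0.997 across genes. A p-value here speaks of the spread among these 6 libraries and no further. The sum of 8 beta cell genes (Ins1, Ins2, Ucn3, Mafa, Pdx1, Nkx6-1, Slc2a2 and G6pc2) came to 57365 and 62986 RPKM for immature cells, 206869 and 222309 for mature cells and 1503 and 3217 for double negative cells. Markers of other cells were also present in the immature libraries. There 6 alpha cell genes summed to 29170 and 19860 RPKM (674 and 878 in mature, 178111 and 171677 in double negative cells). The 2 genes of PP cells summed to 7291 and 8546 (171 and 156 in mature, 19147 and 20419 in double negative cells). Delta cell genes came to 3382 and 3698 (220 and 338 in mature, 20363 and 21905 in double negative cells). For 10 mesenchymal genes the sums were 147 and 104 (0.45 and 0.503 in mature, 23.1 and 28.6 in double negative cells). In the same libraries 12 macrophage genes summed to 1082 and 1085 RPKM, against 52.3 to 67.6 in the other 4, and 11 acinar genes to 9296 and 28992 RPKM, against 129 to 2246. The sum of 8 ductal genes, mostly Spp1, was 457.5 and 476.5 RPKM in immature, 821 and 895 in mature and 741 and 766 in double negative cells. Of the 7 ductal genes tested, 5 were higher in immature than in mature cells (49.8% of all genes) and 2 lower (15.5% of all genes).

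Upstream sequences of class I genes are shown because genes with like letters there, such as H2-K1 and H2-Q6, differed between the groups by unlike amounts. RefSeq gives 250 bases before the start for 37 of the 54 genes (build GRCm38.p6), 28 of the class I side, 8 of the class II side and H2-Ke6. A Y box, the letters ATTGG on either strand, was before 23 of the 28 class I genes and 8 of the 8 class II genes. It was in 33.8% of 32851 regions of all genes. Some genes have more than 1 region. Members are counted here by gene, with a match in any of its regions, and the shares of all by region. The NF-kB site GGGGATTCC was before 4 of 28 class I genes, H2-K1, H2-D1, H2-Q6 and H2-Q7, and 0 of 8 class II genes, against 0.213% of all regions. The exact letters GAAANNGAA, a form of the interferon response motif, were in the regions of B2m, H2-T22 and H2-T23. These are 3 of 28 genes, against 7.13% of all regions, and 0 of 8 class II genes had them. The exact X box core GCAACAG was before 1 of 28 class I genes, H2-M10.5, and 0 of 8 class II genes, against 4.46% of all regions. Only exact letters were searched, so a region without a match can still hold a variant of a site, and absence of the site cannot be read from these counts. In the class I stretches that follow, each ending at the base before the start, capitals mark matches on either strand. No match overlaps another.
H2-K1 (chr17:34000348-34000537, - strand): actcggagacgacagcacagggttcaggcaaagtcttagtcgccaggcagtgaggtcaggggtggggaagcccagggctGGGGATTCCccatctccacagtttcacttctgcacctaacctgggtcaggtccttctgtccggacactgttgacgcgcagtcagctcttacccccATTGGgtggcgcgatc
H2-Q6 (chr17:35424660-35424849, + strand): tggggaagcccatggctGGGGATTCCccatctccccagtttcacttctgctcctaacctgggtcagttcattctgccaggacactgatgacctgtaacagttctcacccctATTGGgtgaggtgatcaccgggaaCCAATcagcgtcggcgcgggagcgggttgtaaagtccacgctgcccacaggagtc
H2-Q4 (chr17:35379427-35379616, + strand): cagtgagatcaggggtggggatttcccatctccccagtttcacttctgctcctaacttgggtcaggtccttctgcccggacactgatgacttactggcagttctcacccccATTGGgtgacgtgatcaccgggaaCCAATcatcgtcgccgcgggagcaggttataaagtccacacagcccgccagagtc
B2m (chr2:122147496-122147685, + strand): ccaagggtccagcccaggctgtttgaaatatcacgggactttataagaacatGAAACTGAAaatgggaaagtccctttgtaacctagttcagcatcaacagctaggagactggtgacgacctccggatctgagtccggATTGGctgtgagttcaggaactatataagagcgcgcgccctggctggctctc
H2-K1 and H2-Q6 share the NF-kB letters followed by a Y box. H2-Q4 holds a Y box on each strand without an exact NF-kB match, and B2m holds an exact interferon match before its Y box.

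Across the 30 members that passed the filter on low values (24 of the class I side and 6 of the class II side), 26 were higher in immature than in mature beta cells, 0 were lower and 4 did not pass the test. Among all genes tested the test called 65.3%, of which 49.8% of all were higher in immature cells and 15.5% lower, so a call alone says little about a member. The size of the difference separated the groups of genes. The median difference was 0.92 for the class I side and 6.22 for the class II side, against 0.29 for all genes tested. Of the 30, 16 were higher by at least 1 log2 unit, against 19% of all genes. H2-DMb1, H2-M2 and Nlrc5 entered the test only through their levels in the immature libraries and had to differ. They are among the 26, so the counts describe the genes, and no test of the immature level is given for these 3.

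Scaling bears on the small differences. The median difference of all genes between immature and mature cells moved from 0.29 to 0.00 with median-ratio rescaling, to -0.17 with quantile normalization and to 0.09 when the 20 highest genes were left out of the scale. The share of all calls that were higher in immature cells then moved from 76.2% to 51.1%, 36.8% and 59%. Under these 3 scalings and the deposited scale alike, 19 of the 30 members stayed higher in immature cells, against 21.3% of all genes, and 0 were lower, against 15.4%. Those 19 hold 5 class II side genes (all 6 but H2-DMa) and 14 of the class I side. H2-DMb1, H2-M2 and Nlrc5 are among the 19 only because of their immature level.

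**Figure D1:**
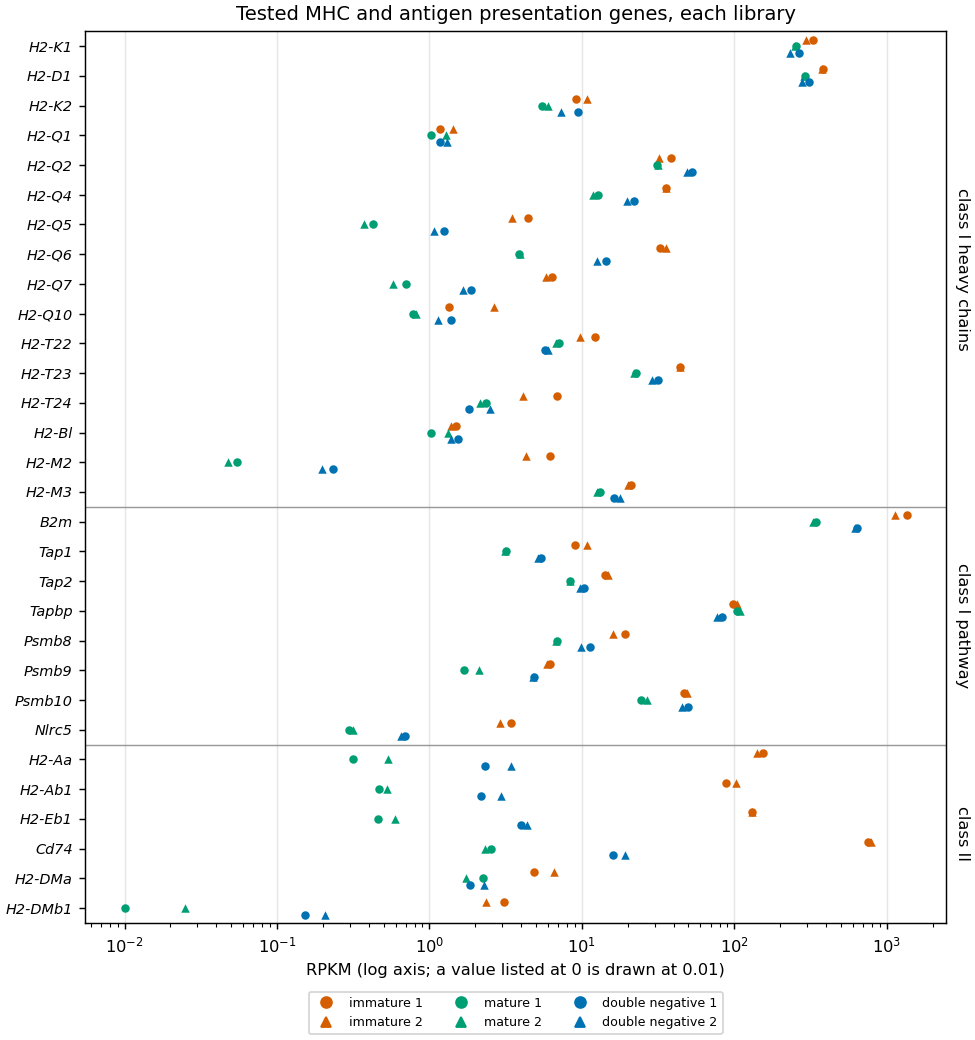
RPKM of the members that passed the filter in each of the 6 libraries, on a log axis, with circles for replicate 1, triangles for replicate 2 and a value of 0 drawn at 0.01. The class I genes H2-K1, H2-D1 and Tapbp sit at like levels in all 3 groups, whereas Cd74, H2-Aa, H2-Ab1 and H2-Eb1 sit far higher in the 2 immature libraries than in the others.

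The classical class I heavy chains were high in every library and nearly level between groups. H2-K1 (chr17:33996017-34000347, protein-coding) had 326 and 294 RPKM in immature cells, 255 and 251 in mature cells and 264 and 232 in double negative cells. H2-D1 (chr17:35262730-35267499) had 385 and 379 RPKM in immature cells, 291 and 289 in mature cells and 309 and 277 in double negative cells. Both immature libraries were the highest for either gene, and the mature and double negative libraries overlapped. H2-K1 rose by 0.29 (SE 0.08, limma adjusted p = 0.0245) from mature to immature cells, which is the median of all genes. H2-D1 rose by 0.40 (SE 0.06, adjusted p = 0.00261). Neither call stood under the other 3 scalings: with median-ratio rescaling the difference was -0.06 for H2-K1 and 0.04 for H2-D1. The call for H2-K1 also ended without immature replicate 1 (adjusted p = 0.0667), mature replicate 1 (0.0963) or mature replicate 2 (0.119). Between mature and double negative cells the difference was 0.03 (adjusted p = 0.77) for H2-K1 and -0.01 (adjusted p = 0.867) for H2-D1. The ratio of H2-K1 to H2-D1, both per length, was 0.776 to 0.877 in all 6 libraries.

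The class I genes of the Q, T and M regions, called class Ib, held the widest differences among heavy chains. Of 28 class Ib genes, 13 passed the filter. From mature to immature cells 10 were higher, against 49.8% of all genes, 0 lower and 3 did not pass the test, with a median of 0.95. H2-M2 is among the 10 only because of its immature level. H2-Q6 (a Qa-2 family gene, the second of the upstream sequences above) had 32.5 and 35.9 RPKM in immature cells, 3.88 and 3.93 in mature cells and 14.5 and 12.6 in double negative cells. The 3 groups did not overlap, with mature cells lowest. H2-Q6 rose by 2.84 (SE 0.09, adjusted p = 4.6e-06) from mature to immature cells, 8.74-fold in mean RPKM, and was lower in mature than in double negative cells by a difference of -1.56 (SE 0.09, adjusted p = 5.06e-05).

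H2-Q7, the other Qa-2 gene with the NF-kB letters, had 6.37 and 5.85 RPKM in immature, 0.702 and 0.577 in mature and 1.87 and 1.67 in double negative cells. H2-Q4 had 35.9 and 35.5 RPKM in immature, 12.7 and 11.9 in mature and 21.9 and 19.7 in double negative cells. H2-Q5 had 4.46 and 3.46 RPKM in immature, 0.424 and 0.375 in mature and 1.25 and 1.08 in double negative cells. All 3 genes followed the order immature, double negative, mature without overlap. H2-Q7 rose by 2.12 (SE 0.10, adjusted p = 1.92e-05) from mature to immature cells, H2-Q5 by 1.82 (SE 0.13, adjusted p = 9.34e-05) and H2-Q4 by 1.47 (SE 0.07, adjusted p = 2.01e-05). The near-identical sequences of the Q genes can share reads, and no source used here says how reads with several matches were counted, so the level of a single Q gene is uncertain.

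H2-Q2 went another way. It had 38.3 and 32.3 RPKM in immature, 30.9 and 31.7 in mature and 52.8 and 49.3 in double negative cells, the highest level being in the double negative group. It did not pass the test between immature and mature cells (0.16, SE 0.09, adjusted p = 0.155), and it was the 1 member lower in immature than in double negative cells, at -0.52 (SE 0.09, adjusted p = 0.00398). H2-T23, which encodes Qa-1, the ligand of the inhibitory receptor NKG2A, had 44.1 and 44.2 RPKM in immature, 22.65 and 22.04 in mature and 31.6 and 28.9 in double negative cells. It rose by 0.95 (SE 0.06, adjusted p = 5.74e-05) from mature to immature cells, with the 3 groups apart. H2-M3, which presents formylated peptides, had 20.9 and 20.2 RPKM in immature, 13.1 and 12.7 in mature and 16.3 and 17.8 in double negative cells. Its rise from mature to immature cells was 0.63 (SE 0.07, adjusted p = 0.000409).

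Smaller class Ib genes were less even. H2-T22, a ligand of some gamma-delta T cell receptors, had 12.1 and 9.68 RPKM in immature, 7.13 and 6.78 in mature and 5.74 and 6.02 in double negative cells, and rose by 0.57 (SE 0.11, adjusted p = 0.00487) from mature to immature cells. That call ended with median-ratio rescaling (0.26, adjusted p = 0.0562) and quantile normalization (0.18, adjusted p = 0.186). Of its exonic bases, 29.4% are shared with A930015D03Rik on the opposite strand, and the library kit keeps no strand. Other tested members also share exonic bases with an opposite-strand gene, among them Tapbp (24.9%), H2-Q4 (19.1%), Psmb8 (14.7%) and Tap2 (14.1%). The part of such reads in these levels was not tested. H2-T24 had 6.89 and 4.12 RPKM in immature, 2.36 and 2.15 in mature and 1.81 and 2.48 in double negative cells. It was higher in immature than in mature cells by 0.97 (SE 0.22, adjusted p = 0.00995), a call that ended without mature replicate 2 (adjusted p = 0.0557) and with quantile normalization (0.31, adjusted p = 0.29). H2-K2, a class I pseudogene of the K region, had 9.16 and 10.8 RPKM in immature, 5.47 and 6.04 in mature and 9.46 and 7.30 in double negative cells, so immature and double negative cells overlapped and mature cells were lowest. H2-Q10 had 1.35 and 2.67 RPKM in immature, 0.785 and 0.815 in mature and 1.38 and 1.14 in double negative cells, with the immature pair far apart. Its difference between immature and mature cells was 0.70 (SE 0.21, adjusted p = 0.0288), a call that ended without mature replicate 1 (adjusted p = 0.11) or mature replicate 2 (0.105), and the sign turned with quantile normalization (-0.16).

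H2-M2 stood apart among the H2-M genes. It had 6.20 and 4.30 RPKM in immature cells (23 and 23 reads), 0.0544 and 0.0481 in mature (2 and 2 reads) and 0.234 and 0.199 in double negative cells (8 and 7 reads). The immature libraries lay far above the other 4, and the double negative libraries above the mature, on few reads. Since the gene reached 1 RPKM only in immature cells, no test is given for it. H2-Q1 and H2-Bl lay between 1.03 and 1.54 RPKM in every library and passed the test in no comparison. Among the class I genes under the filter, H2-T10 had the highest level, 1.47 RPKM in immature replicate 1, and 0.327 to 0.65 in the other 5 libraries. H2-Q3, H2-T3, H2-M10.2, H2-M1 and H2-M6-ps had at most 0.362 RPKM. H2-Ke6, the gene that is not of the MHC, had 0.165 to 0.545 RPKM, and 86.4% of its exonic bases are shared with Gm20427.

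B2m, the light chain that every class I molecule needs, was the highest member in all 3 groups. It had 1356 and 1141 RPKM in immature cells, 343 and 330 in mature cells and 634 and 621 in double negative cells. The groups did not overlap. B2m rose by 1.88 (SE 0.09, adjusted p = 2.15e-05) from mature to immature cells, 3.71-fold, and mature cells were lower than double negative cells by a difference of -0.90 (SE 0.09, adjusted p = 0.000482). Heavy chains did not move with it to the same extent. The summed RPKM of H2-K1 and H2-D1 over that of B2m was 0.524 and 0.589 in immature, 1.59 and 1.64 in mature and 0.903 and 0.819 in double negative cells, and the 3 pairs did not overlap.

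**Figure D2:**
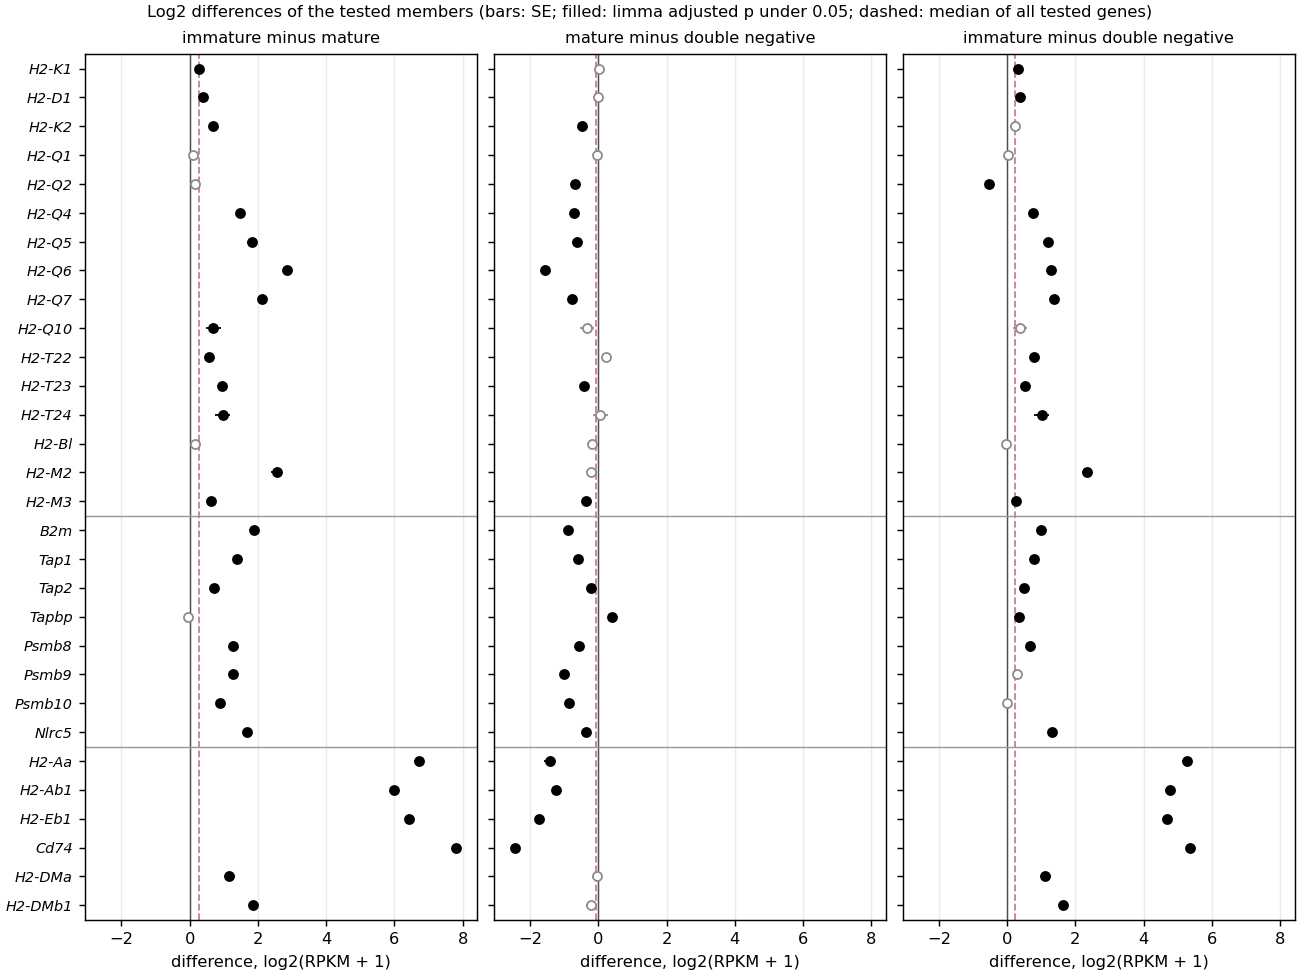
Log2 differences of the 30 tested members in the 3 comparisons on the log2(RPKM + 1) scale, with bars for the standard error, filled points for genes past the test and a dashed line at the median of all tested genes; H2-M2, Nlrc5 and H2-DMb1 were tested only through their immature level. Between immature and mature cells, class II side genes reach 7.81, class I side genes reach 2.84, and H2-K1 and H2-D1 lie near the all-gene median of 0.29, with H2-K1 turning to -0.06 under median-ratio rescaling.

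The peptide supply of class I divided by step. Tap1, a subunit of the peptide transporter, had 9.08 and 10.8 RPKM in immature, 3.20 and 3.13 in mature and 5.41 and 5.19 in double negative cells, without overlap. Tap2, its partner, had 14.1 and 14.9 RPKM in immature, 8.41 and 8.40 in mature and 10.4 and 9.70 in double negative cells, in the same order. Tap1 rose by 1.39 (SE 0.10, adjusted p = 8.61e-05) and Tap2 by 0.72 (SE 0.06, adjusted p = 0.000235) from mature to immature cells. Tapasin, encoded by Tapbp, bridges TAP and the empty class I molecule. It had 98.0 and 105 RPKM in immature, 104 and 108 in mature and 82.8 and 77.0 in double negative cells, so immature and mature cells overlapped and the double negative cells were lowest. The difference between immature and mature cells was -0.06 (SE 0.06, adjusted p = 0.395) and became a call for lower under median-ratio rescaling (-0.41, adjusted p = 0.00422). Tapbp was the 1 member higher in mature than in double negative cells, at 0.40 (SE 0.06, adjusted p = 0.0026), a call that ended with quantile normalization (0.16, adjusted p = 0.0972). Per length, Tapbp stood 9.69 and 10.8 times above Tap1 in immature cells, 32.4 and 34.7 times in mature and 14.8 and 15.3 times in double negative cells.

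The immunoproteasome subunits replace 3 standard catalytic subunits and favour peptides that fit class I. Psmb8 had 19.2 and 16.1 RPKM in immature, 6.84 and 6.73 in mature and 11.4 and 9.91 in double negative cells. Psmb9 had 6.17 and 5.94 RPKM in immature, 1.68 and 2.13 in mature and 4.87 and 4.79 in double negative cells. Psmb10 had 46.7 and 48.9 RPKM in immature, 24.3 and 26.7 in mature and 49.6 and 45.2 in double negative cells. Mature cells were lowest for all 3, and for Psmb10 immature and double negative cells overlapped. From mature to immature cells Psmb8 rose by 1.26 (SE 0.11, adjusted p = 0.00018), Psmb9 by 1.28 (SE 0.10, adjusted p = 0.000134) and Psmb10 by 0.88 (SE 0.07, adjusted p = 0.000175). The standard subunits did not share this. Of 7 standard beta subunits, 0 rose from mature to immature cells (49.8% of all genes), 2 fell (15.5% of all genes) and 5 did not pass the test. Those that fell were Psmb5 (-0.44, adjusted p = 0.000595) and Psmb4 (-0.35, adjusted p = 0.00226).

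Set against its own standard counterpart, each immunoproteasome subunit kept that pattern. Psmb8 over Psmb5 was 0.565 and 0.489 in immature, 0.15 and 0.146 in mature and 0.434 and 0.392 in double negative cells. Psmb9 over Psmb6 was 0.109 and 0.0922 in immature, 0.0285 and 0.0347 in mature and 0.0836 and 0.0901 in double negative cells. Psmb10 over Psmb7 was 1.97 and 2.27 in immature, 1.17 and 1.33 in mature and 2.69 and 2.58 in double negative cells. All 3 ratios were lowest in the mature libraries, and Psmb10 over Psmb7 was highest in the double negative. A common scale factor for a library leaves these ratios as they are.

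**Figure D3:**
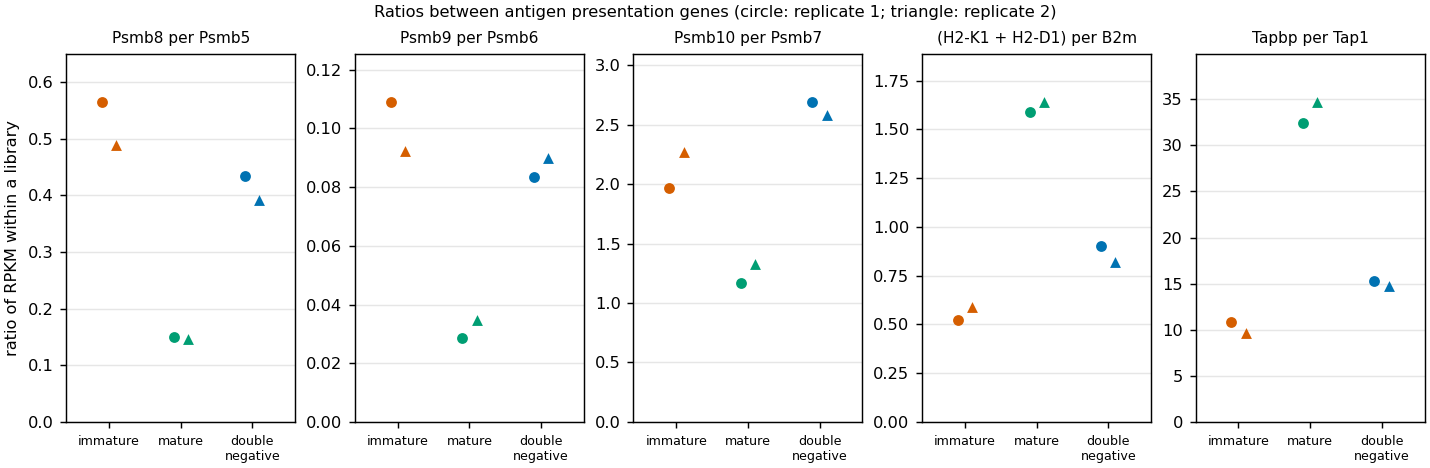
Ratios of RPKM within each of the 6 libraries, on linear axes from 0, for the immunoproteasome subunits over their standard counterparts, for H2-K1 plus H2-D1 over B2m and for Tapbp over Tap1. The 3 immunoproteasome ratios are lowest in the mature libraries, and the ratios of the heavy chains to B2m (1.59 and 1.64) and of Tapbp to Tap1 (32.4 and 34.7) are highest there.

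Nlrc5, the transactivator of class I genes, was low throughout. It had 3.44 and 2.92 RPKM in immature (63 and 77 reads), 0.298 and 0.317 in mature (54 and 65 reads) and 0.694 and 0.65 in double negative cells (117 and 113 reads). The order was immature, double negative, mature without overlap. The mean was 10.3-fold higher in immature than in mature cells. Nlrc5 reached 1 RPKM only in immature cells, so that difference is given without a test. Between the mature and double negative libraries the difference was -0.35 (adjusted p = 0.0325), a call that ended without any single mature or double negative library (adjusted p = 0.115 to 0.167), with no filter (0.0818) and with a replicate block (0.0571), and the sign turned with quantile normalization (0.13).

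Class II gene levels separated the groups far more. The 2 class II regions that follow belong to genes of the alpha and the beta chain with an entry in the table, and each holds the Y box in capitals a short way before the start.
H2-Aa (chr17:34287824-34287933, - strand): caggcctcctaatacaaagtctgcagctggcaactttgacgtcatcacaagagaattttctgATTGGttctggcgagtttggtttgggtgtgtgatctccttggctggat
H2-Eb1 (chr17:34305757-34305866, + strand): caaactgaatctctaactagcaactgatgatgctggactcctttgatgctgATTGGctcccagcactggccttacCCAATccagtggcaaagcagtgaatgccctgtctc
H2-Eb1 holds the Y box on both strands and H2-Aa on 1.

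H2-Aa (chr17:34282744-34287823), the alpha chain of H2-A, had 155 and 141 RPKM in immature cells, 0.315 and 0.537 in mature cells and 2.32 and 3.40 in double negative cells. H2-Ab1, its beta chain, had 87.8 and 103 RPKM in immature, 0.464 and 0.524 in mature and 2.19 and 2.93 in double negative cells. H2-Eb1, the beta chain of H2-E, had 132 and 131 RPKM in immature, 0.463 and 0.598 in mature and 3.98 and 4.35 in double negative cells. For each chain both immature libraries lay far above all others, the mature libraries were lowest, and no groups overlapped. H2-Aa rose by 6.71 (SE 0.15, adjusted p = 1.89e-06) from mature to immature cells, 347-fold in mean RPKM. H2-Ab1 rose by 6.0 (SE 0.13, adjusted p = 1.5e-06), 193-fold, and H2-Eb1 by 6.44 (SE 0.08, adjusted p = 4.29e-07), 247-fold. The mature values rest on few reads, 14 and 27 for H2-Aa, 18 and 23 for H2-Ab1 and 13 and 19 for H2-Eb1, so the folds are coarse.

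The double negative cells carried more class II RNA than the mature beta cells. The log2 difference, mature minus double negative, was -1.43 (SE 0.15, adjusted p = 0.000628) for H2-Aa, -1.24 (SE 0.13, adjusted p = 0.000512) for H2-Ab1 and -1.75 (SE 0.08, adjusted p = 1.96e-05) for H2-Eb1. From double negative to immature cells H2-Aa rose 51.7-fold, H2-Ab1 37.2-fold and H2-Eb1 31.5-fold. The remaining chains were at the edge of detection. H2-Eb2 had 0 and 0.131 RPKM in immature, 0 and 0 in mature and 0.0616 and 0.0398 in double negative cells. H2-Ea-ps, the alpha chain gene of H2-E that is disrupted in some H2 haplotypes, had 1.83 and 0.845 RPKM in immature cells from 3 and 2 reads, 0 in both mature libraries, and 0 and 0.192 in double negative cells.

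Cd74, the invariant chain that blocks the groove of new class II molecules, was the highest class II side gene. It had 749 and 786 RPKM in immature cells, 2.54 and 2.33 in mature cells and 16.1 and 19.2 in double negative cells. Cd74 rose by 7.81 (SE 0.09, adjusted p = 4.29e-07) from mature to immature cells, 315-fold, with 85 and 88 reads behind the mature values. It ranked second after B2m among members in immature cells, ninth in double negative cells, and below the highest 12 in mature cells. The sum of the 5 class II chains over Cd74 was 0.502 and 0.477 in immature, 0.488 and 0.713 in mature and 0.532 and 0.569 in double negative cells. This ratio overlapped between groups.

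The loading chains of class II were low. H2-DMb1 had 3.09 and 2.34 RPKM in immature cells (11 and 12 reads), 0 and 0.0251 in mature (0 and 1 reads) and 0.153 and 0.207 in double negative cells (5 and 7 reads). Over both libraries a group, 23 reads in immature cells stood against 1 in mature cells. Since H2-DMb1 reached 1 RPKM only in immature cells, no test is given for it. H2-DMa, its partner in the DM heterodimer, had 4.84 and 6.54 RPKM in immature, 2.24 and 1.73 in mature and 1.85 and 2.28 in double negative cells. It rose by 1.16 (SE 0.16, adjusted p = 0.00143) from mature to immature cells, a call that ended with quantile normalization (0.49, adjusted p = 0.0517), and mature and double negative cells overlapped. H2-DMa shares 10.4% of its exonic bases with Brd2 on the opposite strand, a gene at 52.1 to 64.0 RPKM in all libraries, and the part of those reads in the level of H2-DMa was not tested. H2-DMb2 had 0.489 and 0.848 RPKM in immature, 0 and 0 in mature and 0.186 and 0.232 in double negative cells. The DM inhibitor chains H2-Oa and H2-Ob, known from B cells, were at 0 in all immature and mature libraries. In the double negative libraries H2-Oa had 0 and 0.0335 RPKM and H2-Ob 0.0431 and 0.126.

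Ciita, the master regulator of class II genes, did not pass the filter. It had 0.239 and 0.276 RPKM in immature cells from 3 and 5 reads, 0.0161 and 0.0142 in mature cells from 2 and 2 reads, and 0.0604 and 0.159 in double negative cells from 7 and 19 reads. The libraries ranked immature, double negative, mature, as for the class II chains, on very few reads. Of the 54 members, 11 were at 0 in every library. They were the class II pseudogenes H2-Pa and H2-Pb and 9 genes of the H2-M group.

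**Figure D4:**
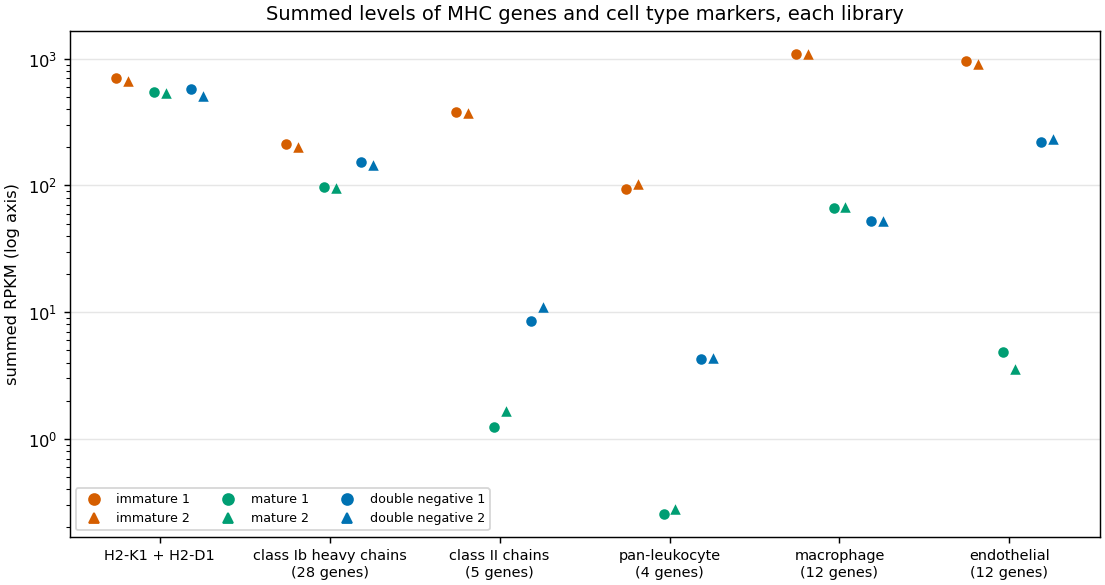
Summed RPKM per library, on a log axis, for H2-K1 plus H2-D1, the class Ib genes, the 5 class II chains and the white blood cell (pan-leukocyte), macrophage and endothelial markers, with a point for each library. H2-K1 plus H2-D1 lies between 509 and 711 in all 6 libraries, while the class II chains lie at 375 and 376 in immature, 1.24 and 1.66 in mature and 8.55 and 10.9 in double negative cells.

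Class I and class II thus had unlike profiles over the 6 libraries. The summed RPKM of H2-K1 and H2-D1 was 711 and 672 in immature, 546 and 540 in mature and 573 and 509 in double negative cells. The sum of the 28 class Ib genes was 213 and 202 in immature, 97.6 and 96.2 in mature and 153 and 145 in double negative cells. The sum of the 5 class II chains was 376 and 375 in immature, 1.24 and 1.66 in mature and 8.55 and 10.9 in double negative cells. Classical class I RNA exceeded class II chain RNA 1.89 and 1.79 times in immature cells, 440 and 325 times in mature cells and 67 and 46.6 times in double negative cells. These ratios did not overlap between groups.

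Genes of other cells moved with the class II genes. Genes of all white blood cells (Ptprc, Coro1a, Laptm5 and Arhgdib) summed to 92.9 and 103 RPKM in immature, 0.257 and 0.281 in mature and 4.27 and 4.33 in double negative cells, with the immature libraries highest for all 4. All 12 macrophage genes were likewise higher in immature than in mature cells, against 49.8% of all genes. Of these lists, 3 of the 4 and 4 of the 12 genes reached 1 RPKM only in immature cells and had to differ once tested. The macrophage sum was no higher in double negative than in mature cells. In mature cells Cd68, C1qa and Cd14 carry it, and 8 of 12 genes were under 1 RPKM. Gene by gene, 6 of the 12 were lower in mature than in double negative cells (31.2% of all genes) and 5 did not pass the test. The 1 higher in mature cells (23.1% of all genes) was Cd68, at 42.2 and 42.3 RPKM against 10.4 and 9.24 in double negative cells. The 8 dendritic cell genes summed to 21.6 and 20.5 RPKM in immature, 0.206 and 0.183 in mature and 1.30 and 1.25 in double negative cells. That immature sum was mostly Itgax, which macrophages also carry, while Clec9a and Cd209a were at 0 in all libraries and Flt3 at 0 in immature and mature cells. The 6 B cell genes summed to 1.18 and 2.13 RPKM in immature, 0.421 and 0.412 in mature and 1.42 and 2.09 in double negative cells. The 7 T cell genes summed to at most 1.02 RPKM, with Cd3d and Cd8b1 at 0 everywhere.

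Endothelial cells can carry class II and much class I, and their 12 markers summed to 957 and 913 RPKM in immature, 4.89 and 3.58 in mature and 221 and 232 in double negative cells. Set against the white blood cell sum, the class II chains came to 4.05 and 3.63 in immature, 4.84 and 5.91 in mature and 2 and 2.52 in double negative cells. The same ratio for classical class I was 7.65 and 6.50 in immature, 2127 and 1922 in mature and 134 and 118 in double negative cells. The class II ratio spanned 2 to 5.91 and the class I ratio 6.50 to 2127 over the same libraries. The mature ratios divide by white blood cell sums of only 0.257 and 0.281 RPKM, so they are coarse. In bulk RNA, fewer cells of a type and less RNA per cell cannot be told apart, and the part of these cells in the differences of the members was not tested.

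Between mature and double negative cells, 1 of the 30 tested members was higher in mature cells, 19 were lower and 10 did not pass the test. Among all genes tested 54.3% were called, with 23.1% higher and 31.2% lower. The median was -0.44 over the members against -0.08 over all genes. The class I side had a median of -0.40, with 15 lower, 1 higher and 8 not called, and the class II side -1.34, with 4 lower and 2 not called. Of the 8 class I pathway genes, 7 were lower in mature cells, led by Psmb9 at -1.01, B2m at -0.90 and Psmb10 at -0.87. Under all 4 scalings 15 members stayed lower, against 20.8% of all genes. Tapbp did not keep its call for higher under all of them. For Tap2 the call (-0.23, adjusted p = 0.0264) ended without any single mature or double negative library (adjusted p = 0.0568 to 0.142), with median-ratio rescaling (0.11), quantile normalization (0.0915) and a replicate block (0.0537).

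Between immature and double negative cells, 23 members were higher in immature cells, 1 was lower and 6 did not pass the test. Among all genes 56.6% were called, 45.9% higher and 10.6% lower. The median was 0.51 for the class I side and 4.72 for the class II side, against 0.24 for all genes. B2m rose by 0.99 (SE 0.09, adjusted p = 0.000399) from double negative to immature cells, 1.99-fold, and H2-Q6 by 1.28 (SE 0.09, adjusted p = 0.000141). The call for B2m ended with quantile normalization (0.20, adjusted p = 0.428). H2-K1 (0.32, adjusted p = 0.0198) and H2-D1 (0.38, adjusted p = 0.00407) were higher by little, and with quantile normalization these differences were -0.11 and -0.01. Psmb10 (0.01, adjusted p = 0.899) and Psmb9 (0.28, adjusted p = 0.0569) did not pass the test. Under all 4 scalings 16 members stayed higher, against 19.9% of all genes, and H2-Q2 stayed lower. H2-DMb1, H2-M2 and Nlrc5 are among the 23 and the 16 only because of their immature level. The 3 comparisons share libraries, so they are not independent of each other. Both immature libraries lay above all 4 other libraries for 23 of the 30 members, against 42.4% of all genes. That count also holds H2-DMb1, H2-M2 and Nlrc5, which had to differ.

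Most other genes of peptide loading, chosen as a list beside the members, did not follow B2m and TAP. Of 8 class I loading genes, 2 rose from mature to immature cells, 3 fell and 3 did not pass the test, with a median of -0.05. The shares over all genes in this comparison, 49.8% higher and 15.5% lower with a median of 0.29, are the measure for this list and those that follow. Tapbpl, the tapasin-like protein TAPBPR that edits class I peptides, had 36.9 and 42.3 RPKM in immature, 89.8 and 86.6 in mature and 36.8 and 35.0 in double negative cells. Mature cells were highest, and Tapbpl fell by 1.14 (SE 0.08, adjusted p = 7.24e-05) from mature to immature cells, while mature exceeded double negative cells by 1.27 (adjusted p = 6e-05). Psme1, a subunit of the proteasome activator PA28, did the reverse. It had 40.9 and 39.4 RPKM in immature, 19.9 and 18.2 in mature and 43.0 and 41.1 in double negative cells, and rose by 1.04 (SE 0.06, adjusted p = 5.17e-05) from mature to immature cells. Erap1, the other gene of the list that rose, had 48.3 and 41.2 RPKM in immature and 33.0 and 32.4 in mature cells. In double negative cells it had 38.2 and 41.8 RPKM, and its rise from mature to immature cells was 0.43 (SE 0.09, adjusted p = 0.00625). The chaperones Calr (-0.56, adjusted p = 0.0003) and Pdia3 (-0.32, adjusted p = 0.00275) fell from mature to immature cells.

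Of 8 genes of class II processing, 6 were higher in immature than in mature cells (49.8% of all genes), 2 lower (15.5% of all genes) and 0 missed the test, with a median of 0.72. March1 is among the 6 only because of its immature level. Ctss, the protease cathepsin S that trims Cd74, had 274 and 302 RPKM in immature, 0.248 and 0.275 in mature and 2.47 and 2.85 in double negative cells. Its 3 groups were ordered as those of Cd74 without overlap, and it rose by 7.84 (SE 0.08, adjusted p = 4.29e-07) from mature to immature cells. Lgmn, the asparagine endopeptidase, rose by 1.95 and Ctsd, cathepsin D, by 0.97 in the same comparison (adjusted p = 3.65e-06 and 2.36e-05). March1, the ubiquitin ligase that removes class II from the surface, had 2.98 and 2.39 RPKM in immature, 0.0472 and 0.0365 in mature and 0.121 and 0.142 in double negative cells. Ctsl, cathepsin L, had 346 and 383 RPKM in immature, 518 and 519 in mature and 337 and 345 in double negative cells, and it fell by 0.51 (SE 0.06, adjusted p = 0.00092) from mature to immature cells. Ifi30, the lysosomal thiol reductase, and Ctsb, cathepsin B, were higher in mature than in double negative cells by 1.46 and 1.11 (adjusted p = 3.43e-05 and 1.73e-05), the reverse of the class II chains.

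Of 15 transcription factors of MHC genes, 14 were higher in immature than in mature cells, 0 lower and 1 did not pass the test, with a median of 0.69, against 49.8% of all genes higher and a median of 0.29. Irf8 is among the 14 only because of its immature level. Irf8, a factor of macrophages, dendritic cells and B cells, had 5.27 and 6.90 RPKM in immature, 0.0239 and 0.0159 in mature and 0.495 and 0.723 in double negative cells. Mature cells were lowest and the groups did not overlap. Stat2 rose by 1.82, Irf9 by 1.14 and Irf1 by 1.05 (adjusted p = 8.98e-06, 0.00021 and 5.92e-05). They are factors of interferon signalling. Nfkb1, the member that did not pass, had 13.7 and 10.1 RPKM in immature, 13.5 and 13.2 in mature and 6.10 and 6.28 in double negative cells, so it was level in the beta cell groups and higher in mature than in double negative cells by 0.99 (SE 0.13, adjusted p = 0.00149). In mature against double negative cells 12 of the 15 were lower in mature cells (31.2% of all genes) and 1, Nfkb1, was higher (23.1% of all genes).

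Of 8 interferon receptor and kinase genes, 7 rose from mature to immature cells (49.8% of all genes), 0 fell and 1, Tyk2, did not pass the test. The largest differences were 1.06 for Ifnar2, 1.05 for Ifngr1, 0.94 for Jak2 and 0.90 for Ifnar1. Socs1, an inhibitor of this signalling, had 2.40 and 2.38 RPKM in immature, 1.14 and 1.10 in mature and 4.61 and 3.71 in double negative cells, and was highest in the double negative group. Of these 8 genes, 2 were lower in mature than in double negative cells (31.2% of all genes) and 6 did not pass that test.

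Of 10 other presenting and costimulatory genes, 8 passed the filter, and between immature and mature cells 7 were higher in immature (49.8% of all genes) and 1 lower (15.5% of all genes). Of the 7, Cd86, Cd1d1, Cd80 and Icosl reached 1 RPKM only in immature cells and had to differ, so no test is given for these 4. Cd86, a ligand of CD28, had 5.59 and 5.86 RPKM in immature, 0.0115 and 0.0204 in mature and 0.186 and 0.144 in double negative cells. Cd1d1, which presents lipids, had 3.25 and 2.03 RPKM in immature, 0.082 and 0.0725 in mature and 0.635 and 0.668 in double negative cells. Cd80, the other ligand of CD28, had 2.46 and 1.36 RPKM in immature, 0 and 0.0219 in mature and 0.0799 and 0.0776 in double negative cells. All 3 genes were highest in both immature libraries, without overlap. Icam1, an adhesion ligand of T cells, had 31.3 and 29.9 RPKM in immature, 6.57 and 7.18 in mature and 21.4 and 19.9 in double negative cells, and rose by 2.0 (SE 0.07, adjusted p = 6.64e-06). Cd40 went the other way. It had 6.62 and 3.07 RPKM in immature, 9.10 and 8.19 in mature and 1.17 and 1.03 in double negative cells, so mature beta cells were highest. It fell by 0.79 (SE 0.28, adjusted p = 0.0483) from mature to immature cells and was higher in mature than in double negative cells by 2.20 (SE 0.28, adjusted p = 0.00123).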

How the data were processed

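RNA was sequenced from 6 libraries in 3 groups with the TruSeq RNA kit v2, per the labels' protocols. The submitters' processing notes name STAR 2.5, featureCounts, edgeR 3.14.0 and build GRCm38.p4. The authors deposited 1 table of RPKM values, with 46959 rows and no counts. Library depth was recovered from the steps between low values (tolerance 0.02 reads, under 200 reads), and 74.1% of rows above 0 gave whole reads in every library. A gene entered the test with 1 RPKM or more in 2 or more libraries. The test was limma (3.58.1, under R 4.3.3) on log2(RPKM + 1), with an intensity trend, 6 libraries in a single fit (3 residual degrees of freedom) and Benjamini-Hochberg adjustment over 13367 genes. The procedure was tested on simulated data. All members that passed the filter are named, and from each other list up to 4 genes per comparison with the largest difference past the threshold. Where a gene reached 1 RPKM only in immature libraries, its call for immature cells follows from the filter and no test of it is printed. Members and lists were chosen with earlier results of these data known. Coordinates are from GENCODE on GRCm38 and sequences from RefSeq on GRCm38.p6. There were 17 alternatives, among them other scalings, filters, pseudocounts, left-out libraries and a replicate block.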

Additional observations from a re-analysis of the deposited data

How the results depend on the processing

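Across the 17 alternatives, the results of the named members kept direction and side of the threshold in 451 cases between immature and mature cells, 445 between mature and double negative and 454 between immature and double negative. They lost the call in 23, 23 and 15, gained it in 4, 13 and 4, and changed sign in 4, 1 and 9.
Between immature and mature cells, members lower numbered 1 with median-ratio rescaling, 2 with quantile normalization and 1 without the 20 highest genes, against 0. Members higher numbered 15 with voom, which could use 17 members with whole reads. Between mature and double negative cells, members higher numbered 2 with median-ratio rescaling, 0 with quantile normalization, 0 with voom and 2 with only both groups fitted, against 1, and members lower numbered 12 with voom. Between immature and double negative cells, members lower numbered 4 with quantile normalization and 2 without the 20 highest genes, against 1, and members higher 14 with voom.
The sign changed between immature and mature cells for H2-K1 (-0.06) with median-ratio rescaling and for H2-Q1 (-0.80), H2-Q10 (-0.16) and H2-Bl (-0.72) with quantile normalization. With quantile normalization it also changed for Nlrc5 (0.13) between mature and double negative cells, and for H2-K1 (-0.11), H2-D1 (-0.01), H2-Q1 (-0.51), H2-M3 (-0.03) and Psmb10 (-0.24) between immature and double negative cells. Without the 20 highest genes it changed between immature and double negative cells for H2-K1 (-0.03), H2-M3 (-0.08), Tapbp (-0.01) and Psmb10 (-0.33). The cause was not tested.
When each library was left out in turn, 22 to 25 members were higher in immature cells than in mature ones, and 0 lower. Between mature and double negative cells 1 to 2 were higher and 15 to 19 lower, and between immature and double negative cells 20 to 23 were higher. All genes called numbered 6297 to 8867, 4720 (without mature replicate 2) to 8657 and 5016 (without double negative replicate 1) to 7910 in the 3 comparisons, against 8728, 7256 and 7563.
Of all calls between immature and double negative cells, 81.2% were higher in immature cells, against 55.2%, 39.7% and 46.7% with median-ratio rescaling, quantile normalization and without the 20 highest genes. Same-numbered libraries deviated together at r of -0.009, 0.14 and -0.112 across 13367 genes, which does not show a pairing by number. The number also carries the labelled sex in all 3 groups. With the replicate block 26, 1 and 23 members were higher and 0, 17 and 1 lower, and all genes called numbered 8407, 6803 and 7073. The 2 immature libraries held 2393839 and 3448922 reads against at least 22063840, and 1 read in a gene of 1 kilobase is worth 0.418 and 0.29 RPKM there.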

Other observations

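Single-gene ratios gave further values on class II. Cd74 over Lyz2, a macrophage and neutrophil gene, was 4.46 and 4.72 in immature, 9.54 and 11.3 in mature and 13.6 and 21.2 in double negative cells. H2-Aa over C1qb, a macrophage gene, was 1.18 and 1.02 in immature, 4.06 and 2.24 in mature and 2.06 and 2.90 in double negative cells. Both were lowest in the immature libraries, where all 4 genes were highest. In mature cells Lyz2 had only 0.266 and 0.206 RPKM and C1qb 0.0775 and 0.24, so the mature ratios are coarse. Cd274 and Mr1 were chosen after their values were seen. Cd274, which encodes the T cell inhibitory ligand PD-L1, had 22.26 and 20.01 RPKM in immature, 7.93 and 8.06 in mature and 9.47 and 9.44 in double negative cells, and it rose by 1.30 (SE 0.07, limma adjusted p = 3.29e-05) from mature to immature cells. Mr1, which presents vitamin metabolites to T cells, had 1.96 and 2.18 RPKM in immature, 0.698 and 0.736 in mature and 1.80 and 1.90 in double negative cells, so mature cells were lowest.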
